A study of Mus musculus with 6 samples.

Results

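The 10 genes described here encode the factors that carry ribosomes along mRNA, together with further genes of the same translational class: *Eef1a1*, *Eef1a2*, *Eef1b2*, *Eef1d*, *Eef1g*, *Eef2*, *Tpt1*, *Pabpc1*, *Eif3e* and *Eif4b*. They were chosen by name, through their Ensembl mouse identifiers, among the 16018 genes of a deposited RNAseq table, and each of the 10 was present. RNAseq had been performed on hearts of 3 female mice lacking the NBCe1-B and NBCe1-C variants of the sodium-bicarbonate cotransporter NBCe1 (KOb/c) and of 3 female wild-type (WT) mice. All were between 4 and 5 weeks of age. The knockout is present in the whole animal, was kept on the C57BL/6J background and leaves the NBCe1-A variant, and each library came from the heart of a separate mouse. Heterozygous crosses gave both genotypes, and because many KOb/c mice die young, the knockout hearts are those of mice that had survived to this age. Between 41364857 and 49100802 reads per library fell on genes. The 10 genes lay so high in the table that counting error was at most 1.62% of any value, beside coefficients of variation between mice of 3.6% to 10.6% in KOb/c and 1.58% to 4.95% in WT hearts.

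During elongation, eEF1A (encoded by *Eef1a1* or its paralog *Eef1a2*) brings aminoacyl-tRNA to the ribosome. The eEF1B complex of *Eef1b2*, *Eef1d* and *Eef1g* recharges eEF1A with GTP, and eEF2 then moves the ribosome by one codon. Heart and skeletal muscle are known to replace *Eef1a1* with *Eef1a2* as they mature after birth. Most of these mRNAs, like those of the ribosomal proteins, belong to the 5'TOP class: they begin at the cap with a C that is followed by a run of pyrimidines, and the mTORC1 kinase pathway and the cap-binding protein LARP1 govern their translation and stability. *Tpt1*, *Pabpc1*, *Eif3e* and *Eif4b* are members of this class outside elongation.

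The pyrimidine run is shown first because it is the feature after which the class is named. In GENCODE M21 (GRCm38), 3 of the 31 coding transcripts of the 10 genes opened at their first base with a C and at least 4 further pyrimidines (C or T), compared with 2.15% of 43331 coding transcripts of the genes in the table. The first 30 bases of such transcripts of *Pabpc1* and *Eef1d* are given 5' to 3' on the transcribed strand, with the opening run in capitals; they lie at chr15:36608944-36608973 (reverse) and chr15:75909277-75909306 (reverse).
Pabpc1, transcript of 2817 nt: CCCCTTCTCCCCggcggttagtgctgagag
Eef1d, transcript of 704 nt: CTCTCCTTTgcagtcctgagctcgcagttc
The principal transcript of *Eef1d* starts upstream of that of 704 nt and carries the same stretch as part of a longer run of 15 pyrimidines from its base 44 (chr15:75909291-75909320, reverse).
Eef1d, transcript of 2312 nt: cgcgggcgCCCTCCCTCTCCTTTgcagtcc

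A C with at least 5 further pyrimidines occurred somewhere in the first 150 bases of the principal transcript of all 10 genes, but also in 67.3% of the 43331 coding transcripts, so that its presence alone does not mark the class. RefSeq (GRCm38.p6) gave a start site for 6 of the 10 genes (*Eef1a1*, *Eef1a2*, *Eef1b2*, *Eef2*, *Tpt1* and *Eif4b*). A C with at least 4 further pyrimidines lay within 5 bases of that site in 1 of the 6, *Eef1a1*, compared with 18.3% of 32851 promoters on the sense strand and 21.4% on the antisense strand. The start regions of the eEF1A paralogs are set side by side, each with 10 bases before and 20 from the RefSeq start and with runs of that kind in capitals (*Eef1a1*, chr9:78481705-78481734, reverse; *Eef1a2*, chr2:181156996-181157025, reverse).
Eef1a1: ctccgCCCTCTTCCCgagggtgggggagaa
Eef1a2: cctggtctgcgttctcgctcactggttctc
In *Eef1a1* the run spanned the annotated start, but it began upstream, and the annotated first base was a T inside it. A further run of 7 pyrimidines that opens with C began at base 54 of the principal *Eef1a1* transcript, outside the printed window. In *Eef1a2* no such run lay within 5 bases of the annotated start. There a run of 9 pyrimidines began farther on, at base 17 of the annotated transcript, where the printed window ends. Which run lies at the cap was not tested for either gene. These are annotated starts and not starts measured in these hearts.

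The libraries were checked before the genes were compared. The targeted gene, *Slc4a4*, was at 264, 944.8 and 268.7 normalized counts in the libraries labelled KOb/c replicates 1, 2 and 3 and at 675.1, 822.2 and 788.8 in the WT hearts 1, 2 and 3. The library labelled KOb/c replicate 2 thus went against its label, and some of the results are also given without it. Values given only with all libraries can depend on it as well. Cardiomyocyte markers were abundant in each library (10 of 10 listed). Their sums were 2997190 to 3324710 normalized counts in KOb/c and 2709480 to 2794640 in WT hearts, without overlap. Gene by gene, 5 of the 10 were lower and 5 higher in KOb/c hearts (median log2 fold change -0.0029). Markers of skeletal muscle (911–4661 summed over 10 of 11 listed), lymphocytes (324–817 over 10 of 14), brown fat (33356–48883 over 8 of 8), neurons (383–651 over 5 of 8) and erythroid cells (29485–133694 over 7 of 7) overlapped in their sums between the genotypes. Of these markers, 8 of 8 for brown fat (median log2 fold change -0.40), 5 of 5 for neurons (-0.44), 6 of 7 for erythroid cells (-0.45), 6 of 10 for skeletal muscle (-0.19) and 8 of 10 for lymphocytes (-0.089) were lower in KOb/c hearts, and the brown fat sum was lowest in KOb/c replicate 1. Several of these medians rested on a single library. Without KOb/c replicate 1 they were 0.20 for brown fat, 0.84 for skeletal muscle and 0.10 for lymphocytes. Without the library labelled KOb/c replicate 2, that of skeletal muscle was -1.15 and that of erythroid cells -0.062. Whichever library was dropped, the median stayed between -0.64 and -0.37 for neurons and between -1.13 and -0.062 for erythroid cells. The part of these markers in the results was not tested. *Myh4*, *Cd3e*, *Rag1*, *Rag2*, *Dntt*, *Syt1*, *Th* and *Nefl* were the listed markers with no row in the table. Fibroblast sums (87844–104628) overlapped as well, and endothelial sums were between 49186 and 52794 in KOb/c and between 46691 and 47800 in WT hearts. Of the fibroblast markers, 4 were lower and 4 higher in KOb/c hearts (median log2 fold change 0.0025). Of the endothelial markers, 2 were lower and 6 higher (0.14). The part of these differences in the results was not tested. In bulk hearts, a cell type that is rarer and one with less of an RNA per cell cannot be told apart.

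A further property of the libraries bears on each value below. Transcript length and genotype were linked in this table: over 15978 genes, longer transcripts had higher log2 fold changes (Spearman's rho = 0.45 across genes, each of which was measured in the same 6 libraries). Over 20 bins of genes ordered by length, the median log2 fold change went from -0.19 in the shortest bin to 0.27 in the longest. Deviations from the gene mean correlated with length with rho between 0.17 and 0.35 in the 3 KOb/c libraries and between -0.34 and -0.24 in the 3 WT libraries. The longest transcripts of the 10 genes ranged from 1169 nt in *Tpt1* to 4123 nt in *Eif3e*. The fold changes of the 10 genes and of the lists are therefore also given after subtraction of a smooth trend in transcript length and GC content from each library, and are then called corrected.

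With limma or edgeR, no single one of the 10 genes differed significantly between KOb/c and WT hearts after adjustment over 16016 genes, whereas DESeq2 called 2, and 5 of the 10 were lower in each KOb/c heart than in any WT heart. With limma and Benjamini-Hochberg adjustment, 0 of the 10 genes passed an adjusted p of 0.05, as did 0% of all genes tested, and edgeR likewise called 0 of the 10. DESeq2 called 2 of the 10, both lower in KOb/c (*Eef1b2* and *Tpt1*), against 5.03% of 11979 genes called lower and 8.22% called higher. At an unadjusted limma p under 0.05, 5 of the 10 were lower and 0 higher, against 10.5% of all genes lower and 13% higher. Groups did not overlap for the same 5 genes, all lower in KOb/c, compared with 14.6% of all genes lower and 15.6% higher. Without the library labelled KOb/c replicate 2, 7 of the 10 did not overlap, all lower (the 5 genes with *Eef2* and *Eif3e*), against 19.4% of all genes lower and 20.7% higher. After correction for length and GC content, 1 of the 10 was lower (*Eef1b2*) and 1 higher (*Eef1a2*) at an unadjusted p under 0.05, against 6.69% and 7.75% of all genes. The count of 5 at an unadjusted limma p under 0.05 stood beside 1681 lower genes among all 16016 tested. It was 2 without KOb/c replicate 1, without WT replicate 1 or without WT replicate 2, beside 1240, 1034 and 1585 lower genes. It was 3 without KOb/c replicate 3 (beside 1597) and 5 without the library labelled KOb/c replicate 2 (beside 1429). The median log2 fold change of the 10 genes was -0.12 and its corrected value -0.083, beside medians over all genes of -0.0043 and 0.011.

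**Figure D1:**
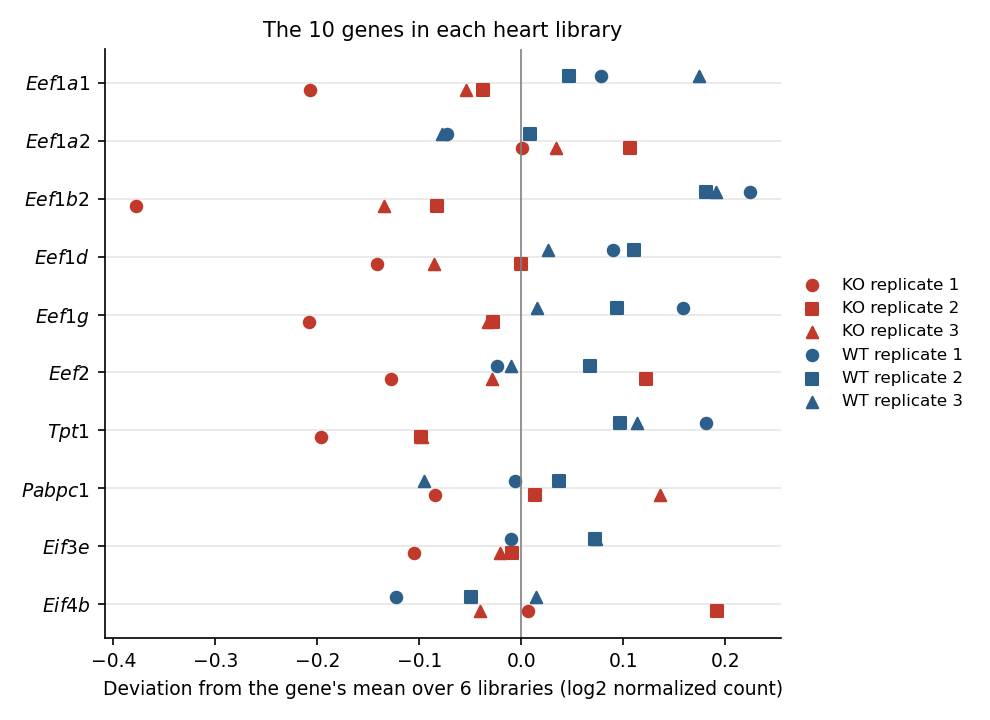
Deviation of each of the 10 genes (rows) from its own mean over the 6 libraries, in log2 normalized counts, with KOb/c libraries (KO) in red and WT libraries in blue and a symbol for each replicate number. For *Eef1a1*, *Eef1b2*, *Eef1d*, *Eef1g* and *Tpt1* all 3 KO points lie left of all 3 WT points, and KO replicate 1 is the leftmost KO point in every row but *Eif4b*.

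The eEF1A paralogs are described first, since they encode the same elongation factor. *Eef1a1* (ENSMUSG00000037742, chr9:78478449-78489151, reverse strand), the form found in most tissues, was at 47774, 53734 and 53134 normalized counts in KOb/c replicates 1, 2 and 3 and at 58248, 56966 and 62230 in the WT hearts 1, 2 and 3. All KOb/c hearts lay below all WT hearts. The log2 fold change was -0.20 (standard error 0.082, limma adjusted p = 0.191, DESeq2 adjusted p = 0.0699), and -0.095 after correction (standard error 0.084, limma adjusted p = 0.627). About 26.7% of the 100-nt stretches of its transcript recur in other annotated genes, 9 of the 10 such genes being processed pseudogenes. The 3 of them listed in the table held only 0.812% as many reads as *Eef1a1* itself, and how reads shared with the others were counted is not stated in the sources used here.

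*Eef1a2* (ENSMUSG00000016349, chr2:181147653-181157014, reverse strand), the form of mature muscle and neurons, was at 59936, 64500 and 61317 normalized counts in KOb/c hearts and at 56945, 60259 and 56750 in WT hearts, in the same order of replicates. The highest WT heart lay above the lowest KOb/c heart, so that the groups overlapped. Its log2 fold change was 0.095 (standard error 0.076, limma adjusted p = 0.49), -0.0099 under quantile normalization, 0.065 without the library labelled KOb/c replicate 2 and 0.21 after correction (standard error 0.088, limma adjusted p = 0.324). No 100-nt stretch of its transcript recurs in another annotated gene.

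Within each heart, the balance between both paralogs can be read without any scaling between libraries. Per transcript length, the *Eef1a2* to *Eef1a1* ratio was 1.08, 1.03 and 0.993 in KOb/c replicates 1, 2 and 3 (1.04 ± 0.0433, SD, n = 3) and 0.842, 0.911 and 0.785 in the WT hearts 1, 2 and 3 (0.846 ± 0.0629, SD, n = 3). The ratio was higher in each KOb/c heart than in any WT heart. On the log2 scale the difference was 0.29, and an exact two-sided permutation test gave p = 0.1, the smallest value that 3 hearts against 3 allow. The difference was 0.31 after correction, between 0.24 and 0.35 with each library left out in turn and 0.30 without the library labelled KOb/c replicate 2. *Eef1a2* made up 50.9% ± 1.04 (SD, n = 3) of the eEF1A transcripts in KOb/c hearts and 45.8% ± 1.84 (SD, n = 3) in WT hearts. With the length taken over all annotated exons, the ratio was 1.44 in KOb/c and 1.18 in WT, so that which paralog is the more abundant depends on the length used and the direction of the difference does not. The summed normalized counts of both genes overlapped between the groups (107710, 118234 and 114451 in KOb/c, and 115192, 117225 and 118980 in WT hearts).

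**Figure D2:**
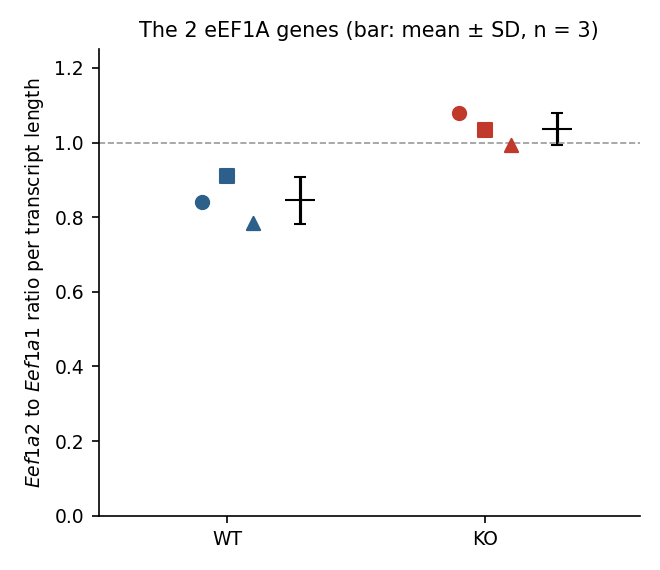
Ratio of *Eef1a2* to *Eef1a1* per transcript length in the 3 WT (blue) and 3 KOb/c (KO, red) hearts, with the mean and SD of each group as a black bar and a dashed line at a ratio of 1. WT hearts sit between 0.785 and 0.911 and KO hearts between 0.993 and 1.08.

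The 3 genes of the eEF1B exchange complex lay lower in each KOb/c heart than in any WT heart. *Eef1b2* (ENSMUSG00000025967, chr1:63176825-63180486, forward strand), the catalytic alpha-type subunit, was at 4879, 5989 and 5775 normalized counts in KOb/c replicates 1, 2 and 3 and at 7409, 7188 and 7241 in the WT hearts 1, 2 and 3. The WT hearts differed little from each other (SD 115) and the KOb/c hearts more (SD 589), with KOb/c replicate 1 the lowest. The KOb/c mean was 0.762 times the WT mean, which was the largest difference among the 10 genes. The log2 fold change was -0.40 (standard error 0.082, limma adjusted p = 0.0815, DESeq2 adjusted p = 0.00147). It was -0.30 after correction (standard error 0.074, limma adjusted p = 0.244), and between -0.46 and -0.31 with each library left out in turn.

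*Eef1d* (ENSMUSG00000055762, chr15:75894205-75909556, reverse strand), the second exchange subunit, was at 4774, 5266 and 4964 normalized counts in KOb/c hearts and at 5607, 5687 and 5362 in WT hearts. The gap between the groups was narrow. Its log2 fold change was -0.15 (standard error 0.063, limma adjusted p = 0.191), and -0.12 after correction. *Eef1d* shares annotated sequence with *Naprt*, an enzyme of NAD synthesis: 9.76% of its 100-nt stretches recur in other genes, and *Naprt* held 15.4% as many reads as *Eef1d*, so that reads of both genes may not have been fully separated.

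*Eef1g* (ENSMUSG00000071644, chr19:8967041-8978479, forward strand), the structural gamma subunit, was at 9844, 11157 and 11120 normalized counts in KOb/c hearts and at 12692, 12135 and 11493 in WT hearts. KOb/c replicate 1 was again the lowest, and WT replicate 3 lay nearest to the KOb/c hearts. Its log2 fold change was -0.18 (standard error 0.073, limma adjusted p = 0.189), and -0.070 after correction (limma adjusted p = 0.658). Processed pseudogenes share 49.4% of its 100-nt stretches; those listed in the table held 1.41% as many reads as *Eef1g*. Summed over the 3 subunits, the normalized counts were 19497, 22412 and 21859 in KOb/c hearts (21256 ± 1548, SD, n = 3) and 25707, 25010 and 24096 in WT hearts (24938 ± 808, SD, n = 3), again without overlap.

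*Eef2* (ENSMUSG00000034994, chr10:81176631-81182498, forward strand), the translocase, was at 70168, 83480 and 75173 normalized counts in KOb/c replicates 1, 2 and 3 and at 75412, 80366 and 76170 in the WT hearts 1, 2 and 3. The overlap of the groups rested on the library labelled KOb/c replicate 2, which lay above all WT hearts, while KOb/c replicates 1 and 3 lay below them. There was no significant difference (log2 fold change -0.023, 95% confidence interval -0.23 to 0.19, limma adjusted p = 0.911), and the sign of this small value turned after correction (0.030) and without KOb/c replicate 1 (0.036). Without the library labelled KOb/c replicate 2 it was -0.090. The interval of *Eef2* contains 0 and that of *Eef1b2* runs from -0.58 to -0.21, but the difference between these genes was not tested.

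*Tpt1* (ENSMUSG00000060126, chr14:75845093-75848525, forward strand) encodes the translationally controlled tumour protein, an abundant growth-related protein and a classical product of a 5'TOP mRNA. It was at 37250, 39858 and 39890 normalized counts in KOb/c replicates 1, 2 and 3 and at 48392, 45636 and 46150 in the WT hearts 1, 2 and 3. All KOb/c hearts lay below all WT hearts, with a wide gap. The log2 fold change was -0.26 (standard error 0.071, limma adjusted p = 0.0945, DESeq2 adjusted p = 0.00496), but -0.096 after correction (standard error 0.078, limma adjusted p = 0.599). When the longest transcript of each of the 10 genes is taken, that of *Tpt1* is the shortest, at 1169 nt. Processed pseudogenes share 39.3% of its 100-nt stretches, and the one listed in the table held 1.09% as many reads.

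The 3 genes that act in initiation and at the mRNA ends did not differ beyond the spread between hearts. *Pabpc1* (ENSMUSG00000022283, chr15:36595661-36609668, reverse strand), the cytoplasmic poly(A)-binding protein, was at 5976, 6396 and 6964 normalized counts in KOb/c hearts and at 6311, 6504 and 5931 in WT hearts. Its groups overlapped, and its log2 fold change was 0.043 (95% confidence interval -0.12 to 0.21, limma adjusted p = 0.768), -0.030 with libraries rescaled to the same total and -0.012 under quantile normalization; after correction it was 0.087. *Eif3e* (ENSMUSG00000022336, chr15:43250058-43282719, reverse strand), a subunit of the scaffold eIF3, was at 3800, 4063 and 4028 normalized counts in KOb/c hearts and at 4060, 4298 and 4301 in WT hearts. The groups overlapped only through the library labelled KOb/c replicate 2, which exceeded WT replicate 1. The log2 fold change was -0.090 (95% confidence interval -0.23 to 0.047, limma adjusted p = 0.4), -0.11 without that library and -0.11 after correction. *Eif4b* (ENSMUSG00000058655, chr15:102073773-102097173, forward strand), a cofactor of the helicase eIF4A, was at 10268, 11675 and 9934 normalized counts in KOb/c hearts and at 9382, 9873 and 10322 in WT hearts. Its groups overlapped and its log2 fold change was 0.11 (95% confidence interval -0.071 to 0.28, limma adjusted p = 0.446); without the library labelled KOb/c replicate 2, the highest of the 6, it was 0.036, and after correction 0.083.

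**Figure D3:**
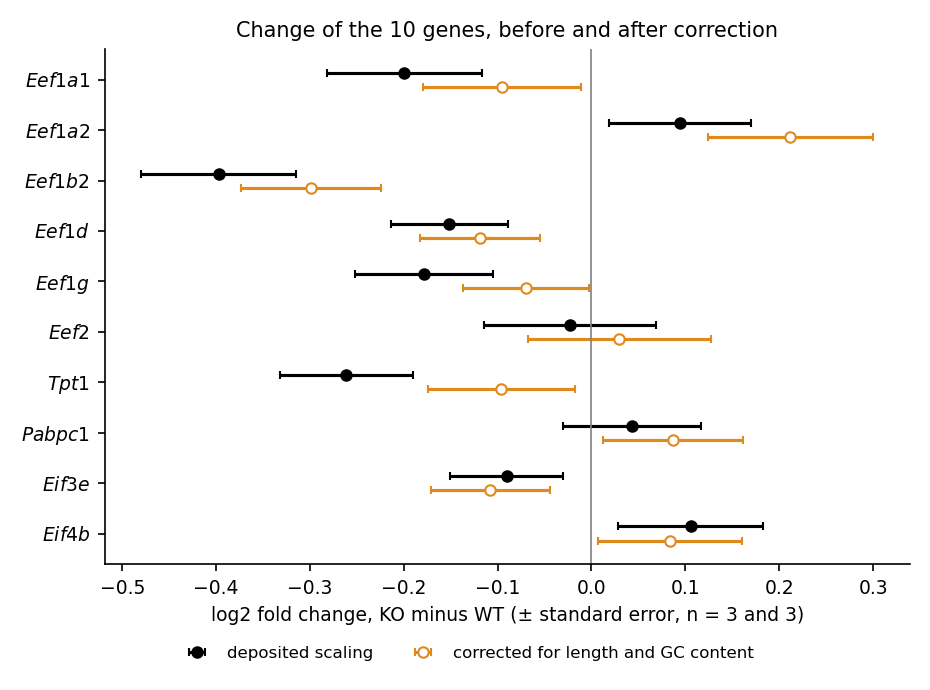
Log2 fold change of each of the 10 genes, KOb/c (KO) minus WT, with its standard error, on the deposited scaling (filled) and after correction for transcript length and GC content (open). *Eef1b2* stays farthest to the left (-0.40 and -0.30), *Tpt1* moves from -0.26 to -0.096, and *Eef1a2* moves from 0.095 to 0.21.

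Set against all genes of similar length, *Eef1b2* lay below and *Eef1a2* above the interquartile range of the genes in the plot of fold change by transcript length. *Tpt1*, *Eef1a1*, *Eef1g* and *Eef1d* lay within that band, nearer to its lower edge. *Eef2*, *Pabpc1* and *Eif4b* fell inside the band as well, and *Eif3e* lay just below its lower edge. The place of *Eif3e* depends on its transcript form, since its longest transcript has 4123 nt and its principal one 1506 nt. That of *Eef1b2* was read at 1939 nt, but an annotated coding transcript of this gene has 681 nt. The lower quartiles were -0.37 and -0.33 in the bins with median lengths of 546 and 973 nt, and -0.24 in that of 1860 nt. The corrected value of *Eef1b2* at the shorter length was not computed.

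**Figure D4:**
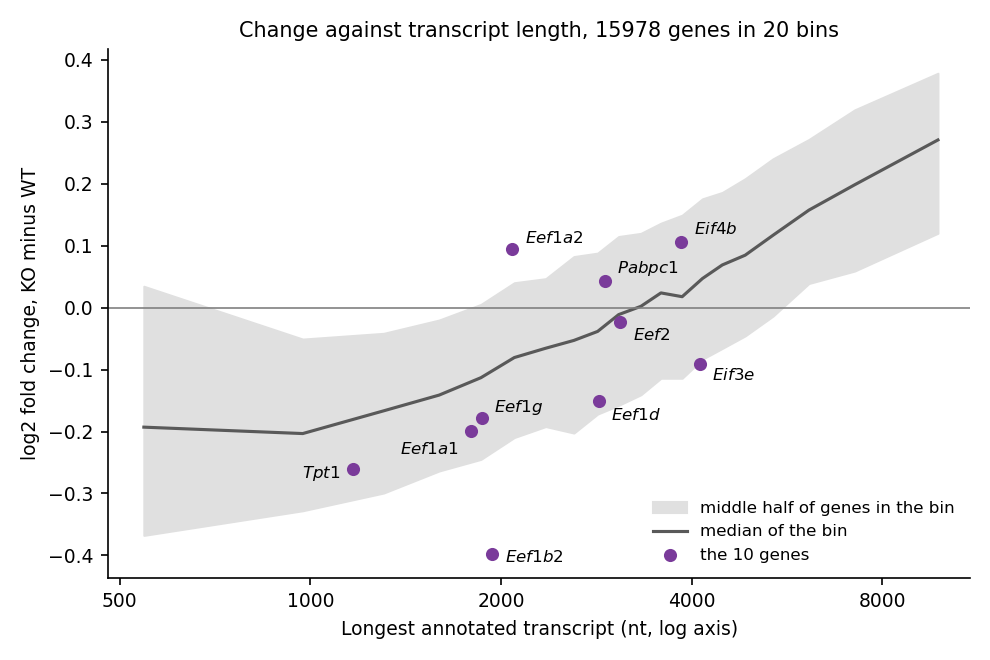
Log2 fold change, KOb/c (KO) minus WT, against the length of the longest annotated transcript on a log axis, for 15978 genes in 20 bins of equal number (line, median; grey band, interquartile range) and for the 10 genes (purple points). The median rises from -0.19 in the shortest to 0.27 in the longest bin. *Eef1b2* (-0.40) and *Eef1a2* (0.095) lie outside the band at their length, and *Eif3e* lies just below its lower edge.

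Levels of the 10 genes spanned a wide range. Per kilobase of the principal transcript, the order in WT hearts from high to low was *Tpt1* (39971 ± 1253 normalized counts per kb, SD, n = 3), *Eef1a1* (32970 ± 1530), *Eef1a2* (27824 ± 946), *Eef2* (25029 ± 864), *Eef1g* (6495 ± 322), *Eef1b2* (3754 ± 59.4), *Eif3e* (2802 ± 91.9), *Eif4b* (2558 ± 122), *Eef1d* (2401 ± 73.2) and *Pabpc1* (2218 ± 104). Only *Eif4b* and *Eef1d* overlapped among neighbours in this order. In KOb/c hearts *Eef1a2* (29711 ± 1123 normalized counts per kb) stood above *Eef1a1* (28733 ± 1829), although their values overlapped, and *Eef1b2* (2861 ± 304) overlapped with *Eif4b* (2757 ± 240) below it. *Eef1g* exceeded both exchange subunits in each group. With length taken over all annotated exons, *Eef1a2* (27824) stood above *Eef1a1* (23726), *Eef2* (23260) and *Tpt1* (19633 normalized counts per kb) in WT hearts. At the lower end, *Pabpc1* (955) then stood above *Eef1d* (856), and *Eif3e* (628) was last. The order at the top and at the bottom thus depends on the transcript form that is assumed.

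The 10 genes did not vary together in every heart. Averaged over them, the deviation from the gene mean was -0.14, 0.018 and -0.032 (log2) in KOb/c replicates 1, 2 and 3 and 0.050, 0.067 and 0.042 in the WT hearts 1, 2 and 3. KOb/c replicate 1 thus stood lowest by a wide margin, and the library labelled KOb/c replicate 2 was nearest to WT. Leaving out that library moved the median of the 10 genes from -0.12 to -0.15, and leaving out KOb/c replicate 1 moved it to -0.089. Among 8368 genes whose average exceeded 500 normalized counts, the 8 with the pattern over the 6 libraries most like this average were *Vti1b*, *Ilkap*, *Nmd3*, *Smim11*, *Mfap4*, *Rps29*, *Slc26a10* and *Cfdp1* (Pearson's r from 0.987 to 0.995 over the same 6 libraries, as a description).

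Other genes of translation were then compared in lists. Over all genes, 10.5% were lower and 13% higher at an unadjusted limma p under 0.05, and 6.69% and 7.75% after correction. DESeq2 called 5.03% lower and 8.22% higher, and groups did not overlap for 14.6% lower and 15.6% higher. With single libraries left out, 1034 to 1597 of all 16016 genes were lower at an unadjusted p under 0.05 and 1384 to 2009 higher. With all libraries these counts were 1681 and 2083. The cytosolic ribosomal protein genes, the largest group of 5'TOP mRNAs, were lower in each KOb/c heart than in any WT heart for 82 of 82 genes, with a median log2 fold change of -0.35 (range -0.51 to -0.18) and a corrected median of -0.21. At an unadjusted limma p under 0.05, 82 of 82 were lower, and 55 of 82 after correction. Without the library labelled KOb/c replicate 2, 80 were lower at that p, beside 1429 of all genes, and the median was -0.40. The leading genes by p were *Rps27a* (log2 fold change -0.49, corrected -0.31), *Rps14* (-0.51, corrected -0.32) and *Rps7* (-0.43, corrected -0.27), each with a limma adjusted p of 0.0815. None of the 82 passed the adjusted threshold in limma or edgeR, whereas DESeq2 called 78 lower. The KOb/c medians of deviation in this list were -0.33, -0.13 and -0.091 in replicates 1, 2 and 3, with replicate 1 lowest as among the 10 genes.

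Of 15 other 5'TOP genes outside the ribosome, 12 were lower and 3 higher, with a median log2 fold change of -0.18 and a corrected median of -0.060. At an unadjusted limma p under 0.05, 8 were lower and 1 higher, against 10.5% and 13% of all genes. After adjustment, limma and edgeR called 0 and DESeq2 4, all lower, against 5.03% of genes called lower by DESeq2. The count of 8 was 4 after correction (with 0 higher), 4 without KOb/c replicate 1, 5 without WT replicate 1 or without WT replicate 3, and 9 without the library labelled KOb/c replicate 2. *Rack1*, a signalling scaffold on the small ribosomal subunit, was at 11079, 12246 and 12619 normalized counts in KOb/c hearts and at 15954, 15349 and 15302 in WT hearts (log2 fold change -0.38, limma adjusted p = 0.0815, DESeq2 adjusted p = 0.000256), and its corrected value was -0.44. *Eif3h*, an eIF3 subunit (-0.25, corrected -0.099), and *Btf3*, a subunit of the nascent polypeptide-associated complex (-0.20, corrected -0.042), followed. The value of *Rack1* was thus no smaller after correction, whereas those of *Eif3h* and *Btf3* moved toward 0, as that of *Tpt1* did. The correction used the longest annotated transcript, which is 4456 nt for *Rack1*, 1295 nt for *Eif3h*, 1091 nt for *Btf3* and 1169 nt for *Tpt1*. How far this contrast depends on the transcript form was not tested.

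Further lists of cytosolic factors were divided between directions. Of 20 measured elongation and termination factors besides the 10 genes, 10 were lower and 10 higher (median log2 fold change -0.039, corrected 0.015). At an unadjusted limma p under 0.05, 2 were lower and 1 higher: *Dph3*, needed for the diphthamide of eEF2 (-0.22, corrected -0.20), *Eef1akmt1*, a methyltransferase of eEF1A (-0.22, corrected -0.046), and *Gspt1*, the release factor eRF3a (0.19, corrected 0.19); limma, edgeR and DESeq2 each called 0 after adjustment. After correction 1 was lower and 2 higher, and without the library labelled KOb/c replicate 2 there were 0 lower and 1 higher. Of 42 other initiation factors, 5 of which (*Eif3f*, *Eif3h*, *Eif3k*, *Eif3l* and *Pabpc4*) are also among the 15 other 5'TOP genes, 23 were lower and 19 higher (median -0.011, corrected 0.015), with 10 lower and 4 higher at an unadjusted p under 0.05, 0 adjusted calls by limma or edgeR, and 3 lower and 2 higher by DESeq2. The shares over all genes were 10.5% lower and 13% higher at that p, and DESeq2 called 5.03% lower and 8.22% higher. After correction 2 of the 42 were lower and 3 higher, against 6.69% and 7.75% of all genes. The lower count of the 42 was 5 without WT replicate 1, 6 without KOb/c replicate 3 and 8 without the library labelled KOb/c replicate 2. With each library rescaled to the same total, which shifted the median of all genes to -0.077, these medians were -0.11 and -0.084. *Eif4a1*, the helicase that eIF4B assists, was at 7849, 7899 and 7634 normalized counts in KOb/c hearts and at 10535, 9435 and 9073 in WT hearts (-0.31, limma adjusted p = 0.0815, DESeq2 adjusted p = 0.00419, corrected -0.29). *Eif3c* was at 6408, 6351 and 6192 in KOb/c hearts and at 5115, 5568 and 5287 in WT hearts (0.25, limma adjusted p = 0.0836, corrected 0.25). Among 13 other eIF3 subunits, 7 were lower and 6 higher with a median of -0.019, so that no common direction was present in the complex to which *Eif3e* belongs.

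The mTORC1 pathway and the regulators of 5'TOP mRNAs had a median log2 fold change of -0.011 over 29 measured genes, of which 17 were lower and 12 higher. At an unadjusted limma p under 0.05, 4 were lower and 8 higher, against 10.5% and 13% of all genes. After correction 3 were lower and 4 higher, against 6.69% and 7.75% of all genes, and the median of the list was 0.0067. The higher count dropped to 5 when the first KOb/c, the first WT or the third WT heart was left out, and to 6 when the library labelled KOb/c replicate 2 was; the lower count was 2 without WT replicate 1. *Mtor*, the kinase itself, was at 3140, 2640 and 2821 normalized counts in KOb/c hearts and at 2001, 2183 and 2118 in WT hearts (log2 fold change 0.45, limma adjusted p = 0.0815, DESeq2 adjusted p = 0.000302), with a corrected value of 0.24. *Tsc2*, an inhibitor of the pathway, was higher by 0.32 (corrected 0.18) and *Eif4ebp2*, a translational repressor that mTORC1 inactivates, by 0.36 (corrected 0.23). Both the kinase and its inhibitor thus lay higher in KOb/c hearts, and limma and edgeR called 0 of the 29 after adjustment, whereas DESeq2 called 1 lower and 4 higher.

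**Figure D5:**
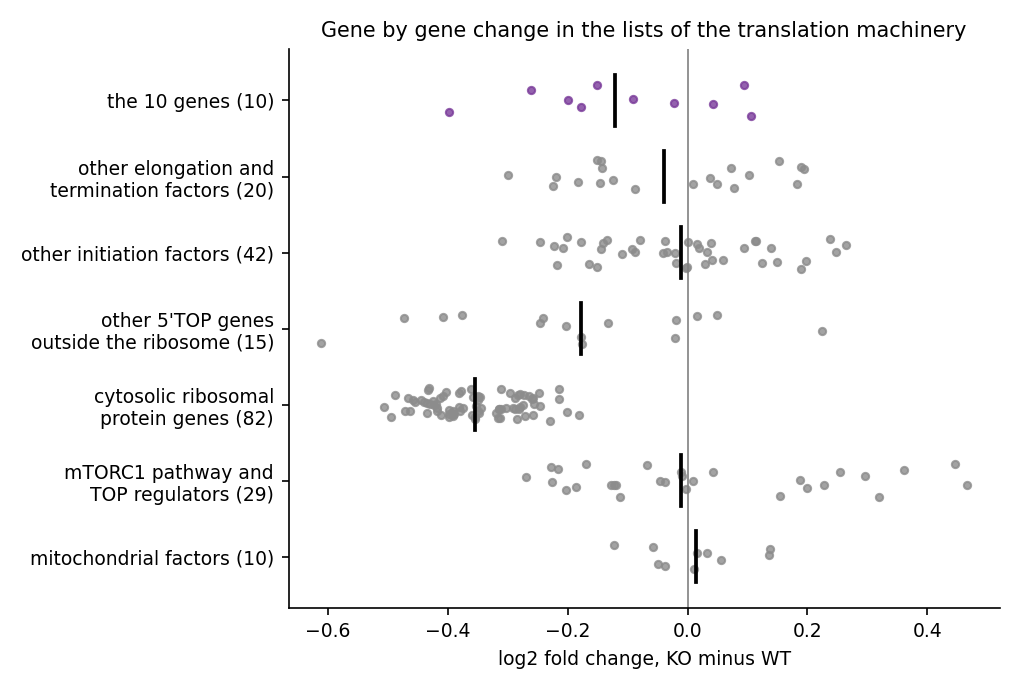
Log2 fold change of each measured gene, KOb/c (KO) minus WT, in the 10 genes and in 6 lists of the translation machinery, with the number of genes in brackets and the median of each list as a black line. The ribosomal protein genes lie between -0.51 and -0.18 with a median of -0.35, the 10 genes have a median of -0.12, and the other initiation factors, mTORC1 genes and mitochondrial factors have medians near 0.

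Whether the pyrimidine run itself went with a lower level was examined over all genes with a RefSeq start. The 2768 genes with a C and at least 4 further pyrimidines within 5 bases of the annotated start had a median log2 fold change of -0.0034, and the 8815 genes without it one of -0.0022. At an unadjusted limma p under 0.05, 11.7% of genes with the run and 11.1% of those without were lower. Among ribosomal protein genes with a matched start, all 30 with the run and all 31 without it were lower at that p, with medians of -0.38 and -0.35. The run lay at the start of 21.2% of genes on the sense strand and of 24.4% on the antisense strand. Read from annotated starts, it thus does not mark the 5'TOP class, and this comparison cannot decide whether that class differed.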

How the data were processed

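Heart RNA from 3 KOb/c and 3 WT mice was sequenced as paired reads. The authors deposited 1 table of a normalized signal: reads per gene, scaled between libraries by their size factors but not to length. The submitters' processing notes name Trimmomatic 0.36, STAR 2.5.2b, featureCounts (Subread 1.5.2), DESeq2 and GRCm38; the handling of strand and of shared reads is not given in the sources used here. Division by the value of 1 read turned 100% of the deposited signal values of each library into whole reads (tolerance 1e-06).

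Groups came from the sample labels. log2(normalized count + 1) of 16016 genes with a mean of at least 10 was compared with limma 3.58.1 (R 4.3.3; variance trend, two-sided, Benjamini-Hochberg, threshold 0.05). Fold changes are on this scale, which understates those of low genes. Alternatives were other pseudocounts (0.5, 5), no filter or a minimum mean of 50, the same total, quantile normalization, no trend, a replicate block, each library left out, edgeR 4.0.16 (TMM, quasi-likelihood) and DESeq2 1.42.0 on the recovered reads, and a correction that subtracts, library by library, a spline fit (5 degrees of freedom each) on log2 length and on GC content of the longest transcript. edgeR called 0 genes and DESeq2 1587. The correction was also fitted without the 10 genes, the ribosomal protein genes and the other 5'TOP genes, and list medians were followed through all alternatives; both were chosen after seeing the data. Limma, edgeR, DESeq2 and limma with the correction were tested on simulated counts that held no length or GC trend. The other procedures were not simulated. Single values were compared with exact permutation tests in numpy 2.4.6, and confidence intervals used scipy 1.17.1.

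The 10 genes and all lists were chosen with earlier results of these data known, so no test of a list was made. The genes named are the 10, the targeted gene, the 3 of each list with the lowest p, and those most like the average of the 10 (8) or *Eef1a2* (5). Levels per length used the annotated principal transcript in GENCODE M21. As the hearts of separate mice are the replicates, p-values cover the spread between these mice and preparations. Some start sequences are not reported here.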

Additional observations from a re-analysis of the deposited data

How the results depend on the processing

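Across 18 alternatives, 5 of the 10 genes at an unadjusted p under 0.05 became 4 with the replicate number as a block (1741 of all 16016 genes lower). They became 2 with no variance trend (1549 of all genes lower). After the length and GC correction there were 2, whether fitted on all genes or without the 5'TOP and ribosomal protein genes. Of these, 1 was lower (*Eef1b2*) and 1 higher (*Eef1a2*, which was not among the 5), beside 6.69% and 7.75% of all genes in the first fit. With single libraries left out there were 2 to 5, beside 1034 to 1597 lower genes. The count past an adjusted p of 0.05 was 0 except with DESeq2 (2: *Eef1b2* and *Tpt1*), and stayed at 0 with each library left out. The count of genes whose groups did not overlap was 5 to 7 with each library left out and, in either direction, 4 after correction. Over all genes the shares were 14.6% lower and 15.6% higher with all libraries. They were 19.4% and 20.7% without the library labelled KOb/c replicate 2, and were not computed for the other settings. The median of the 10 genes was -0.19 at the same total per library, -0.18 after quantile normalization and between -0.15 and -0.089 with each library left out. In the same order, the median over all genes was -0.077, -0.0012 and between -0.0097 and 0.0047. Signs turned for *Pabpc1* at the same total (-0.030), under quantile normalization (-0.012) and in the range with each library left out (-0.014 to 0.096), for *Eef1a2* under quantile normalization (-0.0099), and for *Eef2* after either correction (0.030 and 0.030) and in the range with each library left out (-0.090 to 0.036); the cause was not tested. *Eef1a1*, *Eef1b2*, *Eef1d*, *Eef1g*, *Eif3e* and *Tpt1* were lower and *Eif4b* was higher under each alternative. The log2 difference of the *Eef1a2* to *Eef1a1* ratio was 0.24 to 0.35 with each library left out. With the replicate block it was 0.29 (exact permutation p = 0.25, the smallest such pairs allow). Same-numbered hearts correlated in their deviations with r of 0.227, 0.0720 and -0.0290, and hearts of other numbers with r between -0.18 and 0.15. Whether same-numbered hearts share more than a number is not given in the sources used here, and these correlations cannot decide it. The block changed no other call. Replicates of 3 limit any exact test to p = 0.1. The length trend and the genotype run along the same 6 libraries.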

Other observations

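The factors of mitochondrial translation, which work on separate ribosomes, were near balance. Of 10 measured genes, 4 were lower and 6 higher in KOb/c hearts, and 0 passed an unadjusted limma p under 0.05 in either direction (median log2 fold change 0.013, corrected 0.076; adjusted calls were 0 with limma and edgeR and 0 with DESeq2). After the length and GC correction, 2 were lower and 1 higher at an unadjusted p under 0.05, against 6.69% and 7.75% of all genes. Where the correction was fitted without the 10 genes, the ribosomal protein genes and the other 5'TOP genes, 2 were lower and 0 higher. *Gfm1*, the mitochondrial translocase, was at 9861, 8475 and 8197 normalized counts in KOb/c hearts and at 7841, 8372 and 7871 in WT hearts, so that the groups overlapped. *Mtif3*, an initiation factor, had a log2 fold change of -0.12 (corrected -0.21) and *Mtrf1*, of the release factor family, one of 0.14 (corrected 0.23).

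The 5 genes whose pattern over the 6 libraries was most like that of *Eef1a2* were *Rrbp1*, *Ssr1*, *Ccnk*, *Numa1* and *Tgfbr2* (Pearson's r from 0.975 to 0.989 over the same 6 libraries, among 8368 genes, as a description). *Rrbp1*, a ribosome-binding protein of the endoplasmic reticulum, was at 8052, 9181 and 8272 normalized counts in KOb/c hearts and at 6790, 7925 and 6794 in WT hearts. *Ssr1*, a subunit of the translocon-associated complex in the same membrane, was at 2633, 2817 and 2666 in KOb/c hearts and at 2421, 2649 and 2450 in WT hearts. In both, as in *Eef1a2*, WT replicate 2 was the highest WT heart and the library labelled KOb/c replicate 2 the highest KOb/c heart.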
